A study of Mus musculus with 6 samples.

Results

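The genes described here are 9 transcripts that mark the projection neurons of the striatum: the receptors Drd1, Drd2, Adora2a and Gpr6, the signalling proteins Pde10a, Ppp1r1b and Rgs9, and the peptide precursors Tac1 and Penk. They were found by gene name in a count table of 53715 genes, and each name matched 1 row. The 9 were selected on their count values in these 6 libraries, which were known when the genes were listed, so their levels are given as a description and support no test. Poly(A) RNA of the mouse piriform cortex, the olfactory cortex at the ventrolateral edge of the forebrain, was sequenced in bulk. All 6 libraries came from Gad2-cre mice, in which Cre recombinase is made by cells that use the Gad2 gene, and the piriform cortex of 1 side had been injected with a Cre-dependent adeno-associated virus. The Caspase3 group (3 libraries) received AAV-DIO-Caspase3, which carries an executioner protease of apoptosis, and the GFP group (3 libraries) received AAV-DIO-GFP, which carries a fluorescent protein. The labels used here give neither age, sex, the hemisphere sampled nor the time after injection, and do not say whether each library is a different animal. The p-values therefore measure the spread between these libraries, part of which may be technical.

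The striatum lies medial to the piriform cortex, and its ventral part, the olfactory tubercle, adjoins it at the base of the brain. Most striatal neurons are GABAergic projection neurons of 2 kinds. Direct-pathway neurons carry the dopamine receptor encoded by Drd1 and release substance P, and indirect-pathway neurons carry the receptor encoded by Drd2 together with the adenosine receptor encoded by Adora2a and release enkephalin. Both kinds depend on cyclic AMP signalling, in which Drd1 and Adora2a raise the messenger and Drd2 lowers it, Pde10a degrades it, Rgs9 ends G protein signals, and Ppp1r1b (DARPP-32) carries the signal on to protein phosphatases. None of these genes is exclusive to the striatum: Drd1, Penk and Ppp1r1b are also used by cells of the cortex and the endopiriform nucleus beneath it. Being GABAergic, these neurons also use Gad2.

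In GFP replicate 3 all 9 genes were at their highest of the 6 libraries, and 8 of them, all but Penk, stood at least 2-fold above the next highest library. Of the 16721 genes tested, 16.5% were highest in GFP replicate 3, and 0.496% were at least 2-fold above the next highest library there. The level in that library divided by the next highest had a median of 4.96 over the 9 genes, and the same ratio of the highest to the next highest library had a median of 1.08 over all genes tested. These counts describe how the 9 genes were chosen and are no independent evidence about that library. In bulk RNA, more cells of a type and more RNA per cell cannot be told apart, nor can fewer cells and less RNA per cell. Levels are given below as CPM, read counts scaled to library size, for comparison of libraries, and as FPKM, which also divides by gene length, for comparison of genes.

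The promoters of Drd2 and Gpr6, which were among the genes that stood farthest apart, and of the direct-pathway pair are shown as a description. The element of the cyclic AMP response was looked for in them. The part of this element in the levels of the 9 genes was not tested. The 250 bases before the transcription start were read from RefSeq (GRCm38.p6), which held promoters for 6 of the 9 genes (8 promoters, since Drd1 and Pde10a have 2 starts each). The promoters read did not include those of Adora2a, Penk and Ppp1r1b. Capitals mark the core TGACG, or its complement CGTCA, of the cyclic AMP response element, and they join where cores overlap.
Gpr6, chr10:41072291-41072540, minus strand: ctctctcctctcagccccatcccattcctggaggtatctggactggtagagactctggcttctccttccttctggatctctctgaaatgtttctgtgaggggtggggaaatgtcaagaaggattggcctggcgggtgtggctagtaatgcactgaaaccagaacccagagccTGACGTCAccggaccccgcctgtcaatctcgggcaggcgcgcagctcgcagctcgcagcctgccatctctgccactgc
Drd2, chr9:49340153-49340402, plus strand: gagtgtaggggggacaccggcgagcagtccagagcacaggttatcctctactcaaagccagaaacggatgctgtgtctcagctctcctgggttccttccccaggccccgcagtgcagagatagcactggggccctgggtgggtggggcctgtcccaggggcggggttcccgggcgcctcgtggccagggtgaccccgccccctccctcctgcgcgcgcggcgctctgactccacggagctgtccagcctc
Tac1, chr6:7554811-7555060, plus strand: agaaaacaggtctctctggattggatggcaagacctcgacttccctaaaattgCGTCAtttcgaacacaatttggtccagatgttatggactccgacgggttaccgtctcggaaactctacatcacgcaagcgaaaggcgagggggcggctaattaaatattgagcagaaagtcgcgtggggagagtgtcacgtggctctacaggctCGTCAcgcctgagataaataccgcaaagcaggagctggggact
Drd1, chr13:54055659-54055908, minus strand, upstream start: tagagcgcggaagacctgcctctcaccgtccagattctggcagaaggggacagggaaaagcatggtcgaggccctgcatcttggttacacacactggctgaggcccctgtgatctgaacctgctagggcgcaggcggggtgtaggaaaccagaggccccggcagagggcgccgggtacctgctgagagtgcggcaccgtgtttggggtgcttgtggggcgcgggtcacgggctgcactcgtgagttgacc
The Gpr6 promoter held the full element TGACGTCA, which reads the same on both strands and is made of 2 overlapping cores, and the Tac1 promoter held 2 separate cores. The other 6 promoters held no core. On either strand and within the same 250 bases, 2 of the 8 promoters held the core, against 17.8% of all 32851 promoters in that table, and 1 of the 8 held the full element, against 1.55%. The GC box GGGCGG, searched on both strands, was in 5 of the 8 promoters and in 32.7% of all promoters. The GC content of the 8 was 51.2% to 72.8%, against a median of 52.4% over all promoters, and its part in that count was not tested. A match of letters is a description and not a site of binding.

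The receptors of indirect-pathway neurons were the genes in which GFP replicate 3 stood farthest from the rest. Drd2 (ENSMUSG00000032259, chromosome 9, 49340627 to 49408177, plus strand, GRCm38) stood at 0.190, 0.591 and 0.237 CPM in Caspase3 replicates 1, 2 and 3, and at 1.03, 0.515 and 23.7 CPM in GFP replicates 1, 2 and 3. These levels rested on 4, 13 and 6 reads in the Caspase3 libraries and on 22, 13 and 539 reads in the GFP libraries. Only GFP replicate 3 was high, at 23.1 times GFP replicate 1, the next highest library (exact 95% interval 15.1 to 37.2, which covers counting error only), and GFP replicate 2 lay within the Caspase3 range. That library held 90.3% of the CPM summed over the 6 libraries.

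Adora2a (ENSMUSG00000020178, chromosome 10, 75316877 to 75334784, plus strand), whose product opposes the dopamine receptor in the same cells, stood at 1.85, 1.96 and 1.46 CPM in the Caspase3 libraries and at 3.12, 1.66 and 42.4 CPM in GFP replicates 1, 2 and 3. Again GFP replicate 3 alone was high, at 13.6 times GFP replicate 1 (10.6 to 17.7), and the other 5 libraries spanned 2.14-fold. Gpr6 (ENSMUSG00000046922, chromosome 10, 41069977 to 41072285, minus strand), a receptor that raises cyclic AMP without added ligand, had 1, 7 and 1 reads in the Caspase3 libraries and 15, 16 and 216 reads in the GFP libraries. Its levels were 0.0474, 0.318 and 0.0394 CPM in the Caspase3 libraries and 0.699, 0.634 and 9.49 CPM in the GFP libraries. The groups did not overlap for Gpr6, and GFP replicate 3 was 13.6 times GFP replicate 1 (8.05 to 24.7).

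**Figure D1:**
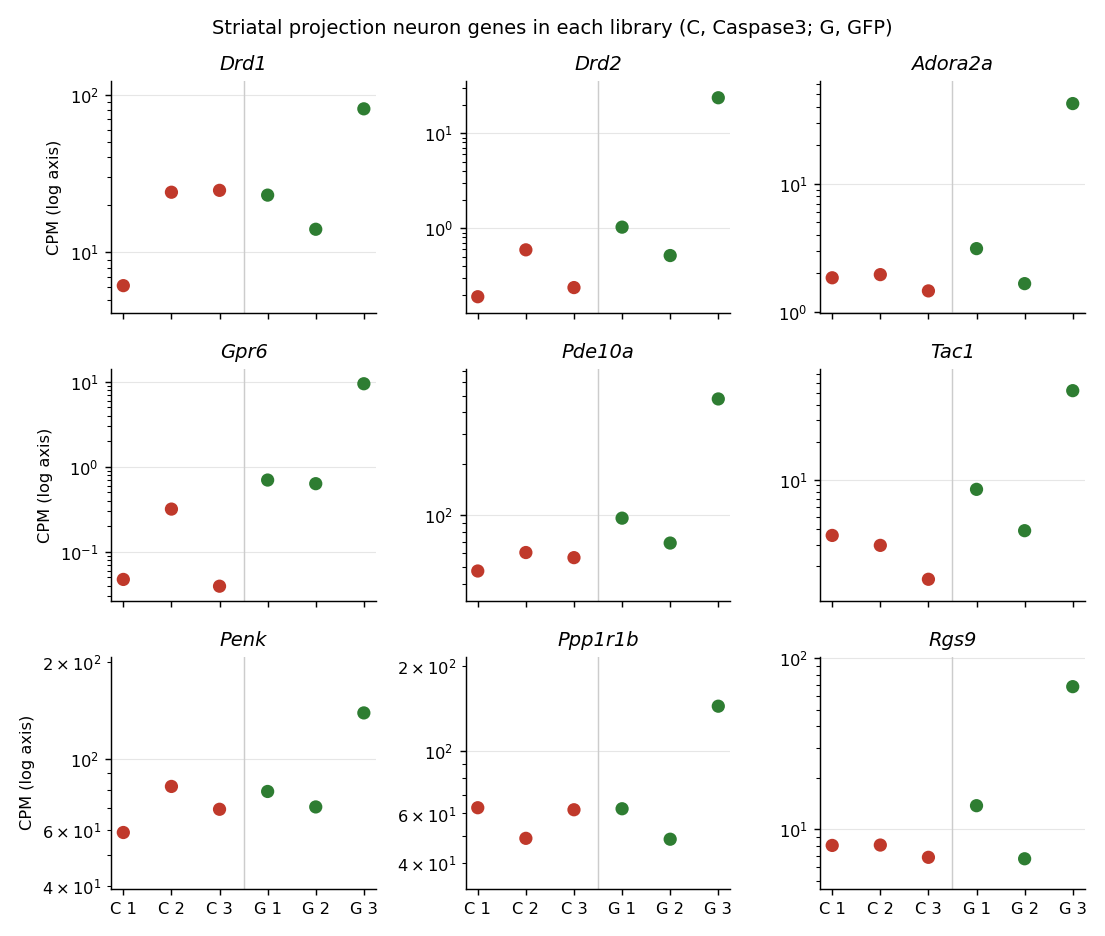
CPM on log axes, scaled separately for each gene, of the 9 striatal projection neuron genes in the 3 Caspase3 libraries (C, red, left) and the 3 GFP libraries (G, green, right), with 1 point per library. GFP replicate 3 is the highest point in all 9 panels, from 139.0 CPM against at most 82.0 CPM elsewhere for Penk to 23.7 CPM against at most 1.03 CPM for Drd2.

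The direct-pathway receptor differed from these in its level outside GFP replicate 3. Drd1 (ENSMUSG00000021478, chromosome 13, 54051183 to 54055705, minus strand) stood at 6.16, 24.1 and 24.7 CPM in Caspase3 replicates 1, 2 and 3 and at 23.1, 14.0 and 81.2 CPM in GFP replicates 1, 2 and 3. GFP replicate 3 was high, at 3.28 times Caspase3 replicate 3 (3.0 to 3.60), Caspase3 replicate 1 was low, and the groups overlapped. Caspase3 replicate 1 also had the highest summed level of the 7 oligodendrocyte markers and the 6 microglia markers, at 12586 and 547.1 CPM, against at most 8965 and 433.3 CPM in any other library, and the part of that in its low Drd1 was not tested. Among the 5 libraries other than GFP replicate 3, Drd1 spanned 4.01-fold and did not separate the groups.

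Per gene length, Drd1 exceeded Drd2 in every library. The ratio of their FPKM values was 22.8, 28.6 and 73.4 in the Caspase3 libraries and 15.8, 19.1 and 2.41 in GFP replicates 1, 2 and 3. The ratio of Drd1 to Adora2a was 2.81, 10.4 and 14.3 in the Caspase3 libraries and 6.24, 7.11 and 1.62 in the GFP libraries. Both ratios were lowest in GFP replicate 3, where the indirect-pathway receptors stood farther above the other libraries than the direct-pathway receptor did. Outside GFP replicate 3 the ratios of Drd1 to Drd2 carry large counting error. Drd2 had at most 13 reads in the Caspase3 libraries and at most 22 in GFP replicates 1 and 2.

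The peptide precursors differed in how far GFP replicate 3 stood apart. Tac1 (ENSMUSG00000061762, chromosome 6, 7554879 to 7565834, plus strand), which encodes substance P of the direct pathway, stood at 3.55, 2.96 and 1.58 CPM in the Caspase3 libraries and at 8.34, 3.88 and 51.9 CPM in GFP replicates 1, 2 and 3. Every Caspase3 library lay below every GFP library, although Caspase3 replicate 1 and GFP replicate 2 were close, and GFP replicate 3 was 6.22 times GFP replicate 1 (5.31 to 7.32). Penk (ENSMUSG00000045573, chromosome 4, 4133531 to 4138819, minus strand), which encodes the enkephalins of the indirect pathway and is also used by interneurons, was at 58.9, 82.0 and 69.5 CPM in the Caspase3 libraries and at 79.0, 70.7 and 139.0 CPM in the GFP libraries. It stood apart least of the 9: GFP replicate 3 was 1.70 times Caspase3 replicate 2 (1.6 to 1.80), and the other 5 libraries spanned 1.39-fold with the groups overlapping. The ratio of Tac1 to Penk, in FPKM, was 0.0290, 0.0173 and 0.0109 in the Caspase3 libraries and 0.0507, 0.0264 and 0.179 in the GFP libraries.

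Of the signalling proteins, Pde10a (ENSMUSG00000023868, chromosome 17, 8525372 to 8986648, plus strand), the phosphodiesterase that degrades cyclic AMP and cyclic GMP, stood at 47.3, 60.7 and 56.6 CPM in the Caspase3 libraries and at 96.3, 68.9 and 477.8 CPM in GFP replicates 1, 2 and 3. The groups did not overlap, and GFP replicate 3 was 4.96 times GFP replicate 1 (4.73 to 5.20). Rgs9 (ENSMUSG00000020599, chromosome 11, 109225355 to 109298129, minus strand), which speeds the turning off of G proteins, was at 8.06, 8.10 and 6.86 CPM in the Caspase3 libraries and at 13.7, 6.73 and 68.2 CPM in the GFP libraries. GFP replicate 2 was its lowest library and GFP replicate 3 its highest, 4.96 times GFP replicate 1 (4.38 to 5.64). Ppp1r1b (ENSMUSG00000061718, chromosome 11, 98348404 to 98357796, plus strand), the phosphatase inhibitor of the dopamine response, stood at 62.9, 49.0 and 61.8 CPM in the Caspase3 libraries and at 62.4, 48.6 and 144.0 CPM in the GFP libraries. Outside GFP replicate 3, at 2.29 times the next library (2.15 to 2.44), its levels spanned 1.29-fold, the narrowest of the 9 genes, and the groups overlapped.

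Per gene length, Penk led in all 6 libraries, at 42.5 ± 7.33 FPKM in the Caspase3 group and 58.8 ± 22.5 FPKM in the GFP group (SD, n = 3 each). Ppp1r1b followed in all 6, at 19.6 ± 2.5 and 29.0 ± 17.4 FPKM in the Caspase3 and GFP groups. Pde10a and Drd1 came next and exchanged places between libraries. Drd1 was above Pde10a in Caspase3 replicates 2 and 3, and below it in Caspase3 replicate 1 and every GFP library. Pde10a was at 4.32 ± 0.569 FPKM in the Caspase3 group and 16.9 ± 18.0 FPKM in the GFP group. Drd1 was at 5.01 ± 2.90 and 10.8 ± 9.98 FPKM in the Caspase3 and GFP groups. Rgs9, Tac1 and Adora2a also exchanged places between libraries, below these 2 genes. Drd2 and Gpr6 were the lowest pair, at 0.132 ± 0.0865 and 0.0752 ± 0.0888 FPKM in the Caspase3 group and 3.28 ± 5.16 and 2.01 ± 2.83 FPKM in the GFP group. For 6 of the 9 genes the SD of the GFP group exceeded its mean in CPM.

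The exons of 7 of the 9 genes overlap no exon of another gene in GENCODE M21 (GRCm38), whose start and end matched the deposited ones for all 9. Penk and Ppp1r1b each have an exon overlapped by an opposite-strand gene, A830012C17Rik and 1700003D09Rik, and the sources used here do not say whether reads were counted by strand. Those neighbours had at most 0.220 and 1.76 CPM in any library.

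GFP replicates 1 and 2 also differed in these genes. All 9 were higher in CPM in GFP replicate 1 than in GFP replicate 2, as were 17 of 26 other genes of the same neurons and 50.2% of all genes tested. For Gpr6 this held only after scaling, with 15 reads in GFP replicate 1 and 16 in GFP replicate 2. The 9 were chosen on these values, so their count is a description. The next highest library after GFP replicate 3 was GFP replicate 1 for 6 of the 9 genes, and a Caspase3 library was lowest for 7 of 9. The same shares over all genes tested were not computed, so neither count is read as a difference of the groups. Summed over the 9 genes, the level was 188.9, 229.6 and 222.9 CPM in the Caspase3 libraries and 287.7, 215.7 and 1038 CPM in GFP replicates 1, 2 and 3. In this sum GFP replicate 2 thus lay among the Caspase3 libraries, and GFP replicate 1 above them. The genes were not alike: GFP replicate 2 was above every Caspase3 library for Gpr6, Tac1 and Pde10a, and below every one for Ppp1r1b and Rgs9.

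The comparison of the groups asks how the tissue differs when the virus in Gad2-cre mice carries the protease in place of GFP. Gad2 itself stood at 26.7, 38.5 and 38.02 CPM in the Caspase3 libraries and at 92.4, 118.0 and 103.7 CPM in GFP replicates 1, 2 and 3, a log2 fold change of -1.60 ± 0.15 (SE; adjusted p = 0.00371 in edgeR's quasi-likelihood test, and at most 0.0494 with any 1 library left out). Over all 6 libraries the 9 striatal genes had log2 fold changes, Caspase3 over GFP, between -4.71 (Gpr6) and -0.46 (Penk), with a median of -1.96 against -0.00114 over all genes tested. None of the 9 passed edgeR's test at an adjusted p of 0.05 over all genes (adjusted p = 0.174 to 0.628), where 0.114% of all genes passed as lower and 1.53% as higher. At an unadjusted p under 0.05 there were 6 of 9, against 3.91% of all genes as lower. DESeq2 gave an adjusted p for 6 of the 9 and called none (4 had an unadjusted p under 0.05, against 2.15% of genes as lower), where it called 0.310% of genes lower and 1.25% higher. With limma-voom none of the 9 passed either (2 had an unadjusted p under 0.05, against 3.76% of genes as lower), and 0.0837% of genes passed as lower and 1.29% as higher. With no filter on low counts edgeR called 8 of 9 lower, all but Penk, against 0.790% of genes lower and 2.10% higher. All 9 genes passed the filter on low counts, Gpr6 with 0 and Drd2 with 1 Caspase3 library at the level of 0.443 CPM that 3 libraries had to reach, so both passed through the GFP group. The rule that chose the genes used this contrast, and nothing is read from these counts.

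The size of every fold change depended on GFP replicate 3. Without it the log2 fold change was -0.01 ± 0.49 for Drd1, 0.053 ± 0.15 for Ppp1r1b and -0.10 ± 0.15 for Penk (SE), all within their error of 0. For Drd2 it was -1.17 ± 0.58, for Adora2a -0.45 ± 0.33 and for Rgs9 -0.42 ± 0.27. It was -2.29 ± 0.72 for Gpr6, -1.19 ± 0.39 for Tac1 and -0.60 ± 0.17 for Pde10a, the 3 genes whose groups did not overlap, with or without that library (6.29% of all genes tested had every Caspase3 library below every GFP library, and 13.0% had every Caspase3 library below GFP replicates 1 and 2). None passed edgeR's test without GFP replicate 3 either (adjusted p = 0.223 to 0.995), where 0.0761% of 17081 genes passed as lower and 0.767% as higher, and 3 of the 9 had an unadjusted p under 0.05, against 4.03% of genes as lower. The median of the 9 was then -0.45, against -0.000754 over all genes tested. Leaving out GFP replicate 3 leaves 2 libraries in the GFP group, and GFP replicate 1 was the higher of them for every one of the 9 genes.

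**Figure D2:**
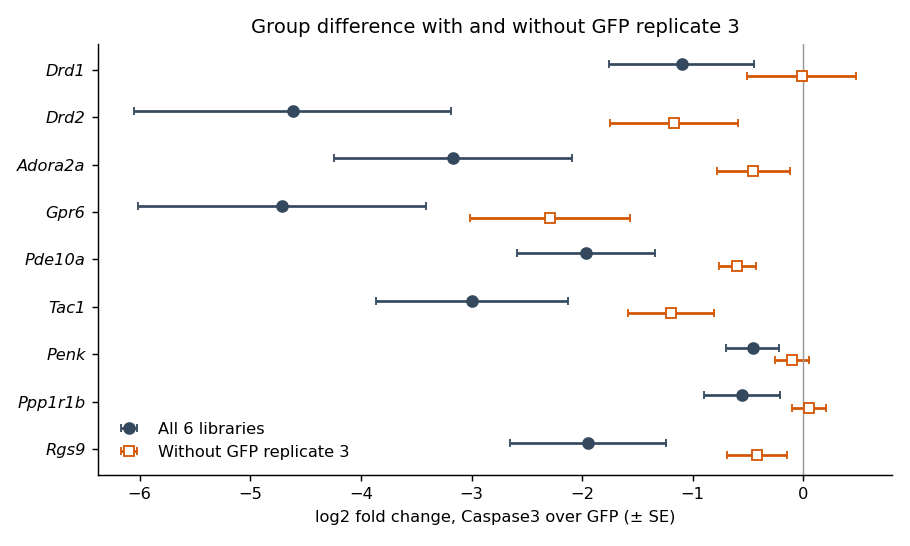
Log2 fold change, Caspase3 over GFP, of the 9 genes (rows) in edgeR's fit with all 6 libraries (filled circles) and without GFP replicate 3 (open squares); bars are the SE. Without that library the value for Drd2 is -1.17 in place of -4.62, and those for Drd1, Penk and Ppp1r1b lie within 1 SE of 0.

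Most of the tested genes of the same neurons outside the 9 were also highest in GFP replicate 3. These genes too were listed with earlier results of these data known, so their counts are a description. Of 30 such genes listed, 26 were tested, of which 21 were highest in GFP replicate 3 and 14 were at least 2-fold above the next library there, 80.8% and 53.8% against 16.5% and 0.496% of all genes. Among genes used by both kinds of neuron, 16 of 17 tested were highest in GFP replicate 3. Adcy5, the adenylyl cyclase of the striatum, stood at 153.1, 137.0 and 138.5 CPM in the Caspase3 libraries and at 154.9, 145.3 and 330.6 CPM in GFP replicates 1, 2 and 3. Gnal, the G protein subunit that couples dopamine and odorant receptors to the cyclase, was nearer level, at 316.7, 336.2 and 297.0 CPM in the Caspase3 libraries and 340.5, 386.4 and 466.8 CPM in the GFP libraries. Arpp21, a phosphoprotein of the same pathway that cortex also uses, was the 1 tested gene of this list with another highest library, at 770.5 CPM in Caspase3 replicate 3 and 710.3 CPM in GFP replicate 3.

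The lists specific to a pathway were mixed. Of 6 direct-pathway genes, 4 were highest in GFP replicate 3. The muscarinic receptor gene Chrm4 was at 11.2, 10.7 and 12.1 CPM in the Caspase3 libraries and 14.4, 13.7 and 22.6 CPM in the GFP libraries, and the dynorphin precursor Pdyn at 1.85, 4.28 and 3.16 CPM in the Caspase3 libraries and 4.15, 1.74 and 22.0 CPM in the GFP libraries. The transcription factor Eya1 and the mitochondrial carrier Sfxn1 were not: Eya1 was highest in Caspase3 replicate 2, at 21.7 CPM, and Sfxn1 in GFP replicate 1, at 52.8 CPM. Of 3 tested indirect-pathway genes, the transcription factor Sp9 was highest there (4.57 CPM, 2.22 times the next library), while the glutamate receptor subunit Grik3 and Plxdc1 were highest in GFP replicate 2. None of the 26 passed edgeR's test (lowest adjusted p = 0.0975, with 15 at an unadjusted p under 0.05, against 3.91% of all genes as lower), and their median log2 fold change was -0.81, or -0.27 without GFP replicate 3. In all, 22 of the 83 genes at least 2-fold above the next library in GFP replicate 3 (26.5%) were striatal projection neuron genes. Of the 22, 8 were from the 9 genes chosen on these values, and 55 of the 83 were on none of the lists used here.

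Other marker lists of the ventral forebrain did not all follow the 9 genes. Of 7 markers of cholinergic neurons, which the striatum and basal forebrain hold, the summed level was 7.77, 6.0 and 4.65 CPM in the Caspase3 libraries and 5.13, 3.37 and 27.9 CPM in GFP replicates 1, 2 and 3. Both tested markers of this list were over 2-fold above the next library there: the choline transporter Slc5a7 at 12.5 CPM against at most 3.08 CPM, and the vesicular transporter Slc17a8 at 9.40 CPM against at most 3.55 CPM. Of 6 markers of the ventral striatum and olfactory tubercle, the summed level spanned 36.2 to 42.2 CPM in the Caspase3 libraries and 36.3 to 46.9 CPM in the GFP libraries, and none of the 5 tested was highest in GFP replicate 3. The peptide genes Cartpt and Nts stood at 11.4 and 11.3 CPM in that library and were highest in Caspase3 replicate 1, at 18.9 CPM, and GFP replicate 1, at 12.8 CPM. Drd3, the dopamine receptor of the islands of Calleja, did not pass the filter and was at 0.0455 to 0.379 CPM in the Caspase3 libraries and 0.0396 to 1.80 CPM in the GFP libraries, with GFP replicate 3 the highest.

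Markers of the claustrum and endopiriform nucleus stood apart, in their summed level, in another library. Summed over 4 genes they reached 251.7 CPM in GFP replicate 2, against 83.1 to 127.3 CPM in the Caspase3 libraries and 114.1 and 121.0 CPM in GFP replicates 1 and 3. The transcription factor Nr4a2 was at 100.1 CPM in GFP replicate 2, against at most 40.5 CPM elsewhere. Gnb4 and Ntng2 were also highest in that library. Lxn was not, at 11.6 CPM against 13.6 CPM in Caspase3 replicate 1, its highest library. Summed over 12 genes, cortical excitatory markers lay between 3880 and 4307 CPM in the Caspase3 libraries and between 3806 and 4427 CPM in the GFP libraries, with the lowest in GFP replicate 3. The vesicular glutamate transporter Slc17a7 was at 780.2 CPM there, against 946.4 CPM or more elsewhere. Camk2a and Nrgn were not lowest there, at 2397 and 166.8 CPM. Camk2a was at 2149 CPM in Caspase3 replicate 1, and Nrgn at 162.5 CPM in GFP replicate 1. Of the 12, 2 were highest in GFP replicate 3, against 16.5% of all genes tested. The 17 GABA and interneuron markers summed to 467.0, 703.6 and 493.4 CPM in the Caspase3 libraries and 793.9, 1042 and 1150 CPM in GFP replicates 1, 2 and 3. Of the 17, 10 were highest in GFP replicate 3, and 2 were at least 2-fold above the next library there. The shares over all genes tested were 16.5% and 0.496%. Gad2 fell, with no other of the list passing edgeR's test. The share of striatal tissue in each dissection was not measured, and the part of these differences in the 9 genes was not tested.

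**Figure D3:**
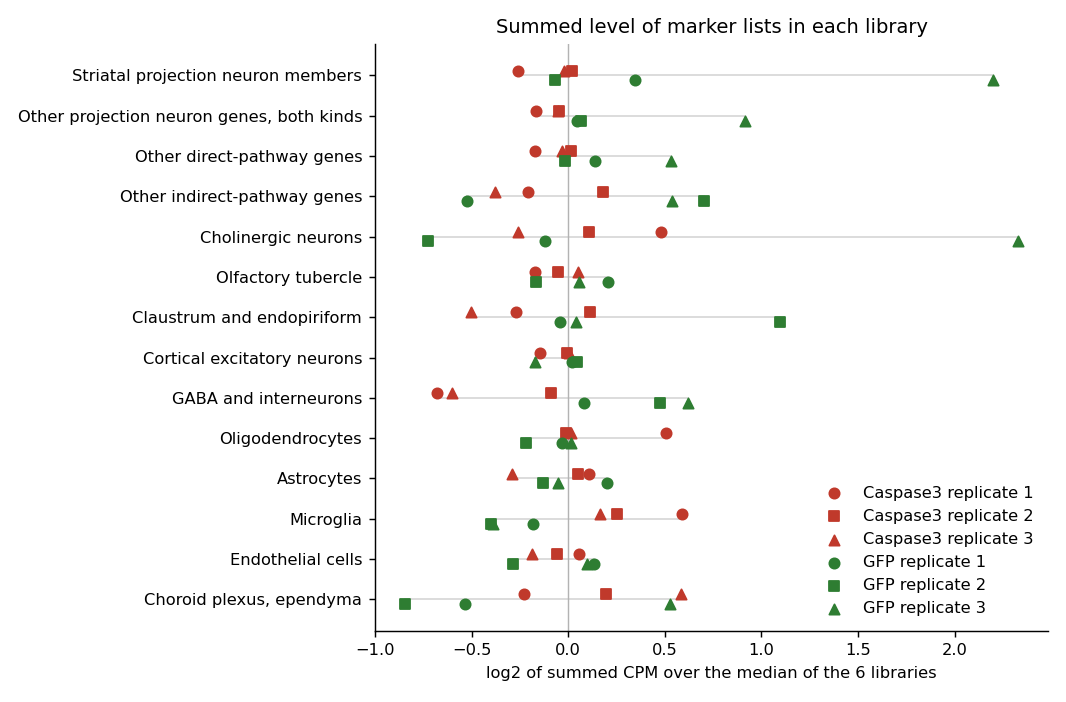
Summed CPM of each marker list in each library, as the log2 ratio to the median of the 6 libraries (Caspase3 libraries red and raised, GFP libraries green and lowered; circle, square and triangle for replicates 1, 2 and 3). GFP replicate 3 is far to the right for the 9 genes, at 1038 CPM, and for the cholinergic list, at 27.9 CPM, and GFP replicate 2 is for the claustrum and endopiriform list, at 251.7 CPM.

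Glial and vascular lists did not follow the 9 genes. Oligodendrocyte markers summed to 8793 to 12586 CPM in the Caspase3 libraries and 7629 to 8965 CPM in the GFP libraries, and astrocyte markers to 7610 to 10050 and 8524 to 10715 CPM in the Caspase3 and GFP groups. The 6 microglia markers were at 406.5 to 547.1 CPM in the Caspase3 libraries and 274.8 to 319.6 CPM in the GFP libraries, and Cx3cr1, Csf1r and Aif1 were among those that rose in edgeR's fit of all 6 libraries. These calls were not stable: of the 6 fits that left out 1 library each, Cx3cr1 passed in 0, Csf1r in 1 (without Caspase3 replicate 1) and Aif1 in 4 (all but those without GFP replicate 2 or 3). Their adjusted p reached 0.211 without GFP replicate 2. Gfap, the filament of reactive astrocytes, rose among the astrocyte genes (log2 fold change 1.31, adjusted p = 0.0099) and missed the threshold without GFP replicate 2, at an adjusted p of 0.0699. The 4 endothelial markers lay at 246.4 to 292.1 CPM in the Caspase3 libraries and 230.8 to 308.1 CPM in the GFP libraries. Markers of the choroid plexus and ependyma were low, at 10.6 to 18.6 CPM in the Caspase3 libraries and 6.93 to 17.9 CPM in the GFP libraries. None of the oligodendrocyte, astrocyte, microglia or endothelial genes was highest in GFP replicate 3.

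The signalling pathways to which the 9 genes belong were also examined. Of 24 tested genes of dopamine and adenosine signalling through cyclic AMP, 5 were on the striatal lists as well (Gnal, Gng7, Adcy5, Arpp21 and Pde1b). Among the other 19, none passed edgeR's test in either direction, and the median log2 fold change was -0.04. At an unadjusted p under 0.05 there were 5, Ppp1r1a as higher and the rest as lower, against 3.91% of all genes as lower. Of the 19, 3 were highest in GFP replicate 3, none of them at least 2-fold above the next library. The catalytic subunit Prkacb of protein kinase A stood at 410.1, 680.3 and 588.8 CPM in the Caspase3 libraries and 592.5, 578.9 and 568.8 CPM in the GFP libraries. Rgs7bp, which anchors RGS proteins of the Rgs9 family at the membrane, stood at 394.8, 506.9 and 424.9 CPM in the Caspase3 libraries and 592.9, 639.7 and 638.0 CPM in the GFP libraries, with no overlap of the groups (log2 fold change -0.50, adjusted p = 0.106 in edgeR). Of 12 genes of opioid and tachykinin signalling, 1 (Pdyn) was on the striatal lists. Among the other 11, none passed, and the median log2 fold change was -0.46. Lower at an unadjusted p under 0.05 were 4, against 3.91% of all genes. In GFP replicate 3, 5 of the 11 were highest, of which 1 (Mme) was at least 2-fold above the next library. The enzymes that cut and trim the peptide precursors, Pcsk1, Pcsk2 and Cpe, had log2 fold changes of -0.32, 0.01 and 0.19, and Pcsk1 alone was highest in GFP replicate 3, at 1.16 times the next library.

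The genes most like the 9 were found by the root mean square difference, over the 6 libraries, between each gene's centred log2 CPM and the mean profile of the 9, among 13231 genes that averaged 1 CPM or more (median difference 1.32). Of the 10 nearest, Lrrc10b came first, at 0.150, followed by Mme at 0.287, Wnt2 at 0.334, Syt6 at 0.334, Slc35d3 at 0.427, Gprin3 at 0.429, Pdyn at 0.484, Rem2 at 0.511 and Dlx6os1 at 0.526. Lrrc10b, a leucine-rich repeat protein, stood at 2.80, 4.46 and 3.55 CPM in the Caspase3 libraries and 6.15, 3.84 and 39.0 CPM in the GFP libraries. Mme, the membrane peptidase neprilysin that degrades enkephalins and substance P, stood at 3.55, 5.50 and 3.31 CPM in the Caspase3 libraries and 11.5, 8.79 and 52.9 CPM in the GFP libraries, with no overlap of the groups. Of these 10, 5 were on the lists of projection neuron or peptide genes used here. By the same measure Pde10a (0.229) and Rgs9 (0.304) lay nearest the mean profile among the 9 and Gpr6 (1.29) farthest.

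**Figure D4:**
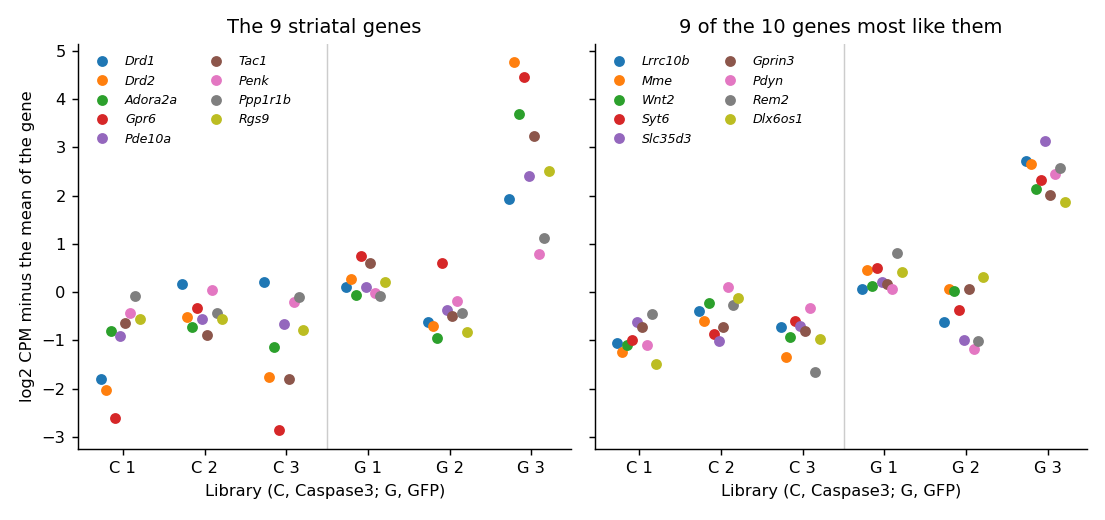
Log2 CPM of each gene minus its mean over the 6 libraries, for the 9 striatal genes (left) and 9 of the 10 genes most like them (right), in the Caspase3 libraries (C) and the GFP libraries (G), with 1 point per gene and library. In both panels every gene is highest in GFP replicate 3, and Gpr6, with 1 read each in Caspase3 replicates 1 and 3, reaches the lowest values.

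Ranked instead by how far GFP replicate 3 stood above the next library, among genes that averaged 1 CPM or more and leaving out predicted genes, the 10 leading genes outside the 9 were Htr4, Clic6, Slc35d3, Lrrc10b, Otof, Sh3rf2, Pdyn, Mme, Gpr149 and Syndig1l, at 8.27-fold to 4.16-fold, and 4 of them are among the 10 above. Htr4, a serotonin receptor, stood at 0.569, 0.773 and 0.631 CPM in the Caspase3 libraries and 1.26, 0.158 and 10.4 CPM in GFP replicates 1, 2 and 3. Clic6, a chloride channel family protein counted here as a choroid plexus marker, was at 0.758, 0.136 and 0.552 CPM in the Caspase3 libraries and 1.40, 0.277 and 10.9 CPM in the GFP libraries, while the choroid plexus gene Kl was at 4.70 CPM in GFP replicate 3, its lowest library. Otof, which encodes a calcium sensor of vesicle release, was at 3.65, 7.0 and 7.53 CPM in the Caspase3 libraries and 8.16, 2.38 and 50.2 CPM in the GFP libraries.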

How the data were processed

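Gene counts were deposited by the authors as whole numbers, with gene coordinates and lengths per the file headers. Per the submitters' processing notes, the tools were featureCounts, HISAT2 and DESeq2 and the builds GRCm38 and mm10, with no role given. The FPKM values deposited by the authors equalled the counts divided by gene length and by 1 constant per library (95.63% to 105.6% of its total) and were used for comparing genes and in alternatives. Gene length is the deposited value.

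Total counts were 20424581 to 24227361 in the Caspase3 libraries and 22101015 to 26268377 in the GFP libraries. A level of 0.118 to 0.142 CPM rests on 3 counts. Groups and replicate numbers came from sample titles. The same-number libraries were not shown to be paired.

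Counts were tested with edgeR 4.0.16 under R 4.3.3 (TMM, filterByExpr, glmQLFit, glmQLFTest, intercept and group, Benjamini-Hochberg adjustment over 16721 genes). CPM used TMM factors. SE is the absolute log2 fold change over the square root of F. Alternatives used DESeq2 1.42.0, limma 3.58.1 (voom, or log2(FPKM + 0.1) and log2(FPKM + 1)), other scalings, no filter, a replicate block and each library left out. The code was tested on simulated data. Fold intervals are exact (Clopper-Pearson, 95%). Within groups, libraries differed beyond counting noise (mean chi-square per gene 12.6 to 32.8).

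The 9 genes and the 15 other lists were chosen with earlier results of these data known. Named genes are the 9, the 3 tested genes of highest mean CPM per list, and the 10 genes by each of the 2 rules of likeness described, leaving out predicted genes. Other genes of the lists (Drd3, Aif1 and Gfap) were named after their values were seen, and some genes under the rule are given only in their list's sum or are not reported here. Figures were drawn with Matplotlib 3.10.9.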

Additional observations from a re-analysis of the deposited data

How the results depend on the processing

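For the 9 genes, DESeq2 size factors, upper-quartile factors, library totals, DESeq2, limma-voom, both FPKM fits, the replicate block and an adjusted p under 0.1 called none, as did each fit that left out 1 library (0 in each). With no filter on low counts edgeR called 8. Of all genes, 274 passed in edgeR, against 495 with DESeq2, 170 with limma on log2(FPKM + 1), 913 with no filter, and 17 to 285 with 1 library left out (17 without GFP replicate 2 and 144 without GFP replicate 3). The replicate block called 421 genes and none of the 9. Sample numbers share no stated source, and the deviations of same-number libraries correlated at 0.0642, 0.166 and 0.0212, so the numbers were not taken as pairs. The median log2 fold change of the 9 was -1.96, and -2.42 to -0.45 with 1 library left out (-0.45 without GFP replicate 3). Of the 9, Ppp1r1b alone changed sign: its value was -0.83 (without GFP replicate 2) to 0.053 (without GFP replicate 3) with 1 library left out. The median ratio of the highest to the next highest library was 4.96, and 1.40 (without GFP replicate 3) to 8.42 (without GFP replicate 1) with 1 library left out. Other scalings gave 4.95 to 5.12. Of the 10 most like genes, 9 were shared with a prior count of 2 and all 10 with DESeq2 size factors. The cause of these changes was not tested beyond the removal of the library named. Drd2 and Gpr6 had at most 13 and 7 reads in a Caspase3 library, which limits their fold changes.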
